A study of Mus musculus with 2 samples.

Results

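The Rab genes are the genes whose symbol is Rab followed directly by a digit, and 72 of the 18194 genes with a single-gene probe set on the array met that rule. A gene with several probe sets was represented by its brightest one, judged by the mean of both arrays. Of the 72 genes, 59 encode Rab GTPases, 10 encode proteins that the symbol names as Rab partners (such as Rab3gap1 and Rab11fip1), and 3 are transcripts of the opposite strand (Rab10os, Rab26os and Rab11fip4os1). The label of Rab GTPases therefore describes most of the set, not all of it.

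CD8+ dendritic cells (DCs) of the spleen were compared with CD8- DCs, all from C57BL/6 mice. Both populations came from mice that carried B16 melanoma cells, a mouse tumour line, made to secrete Flt3 ligand, a cytokine that expands DCs, and 10 to 12 days passed before the spleens were taken. After magnetic enrichment, the sort kept CD11c+ cells that lacked CD3 and B220 and divided them by CD8α, and neither population was stimulated. Each population was measured on 1 Affymetrix array of total RNA. The labels state neither the age nor the number of the mice. With 1 array a population there is no replicate spread, so no test was made and no p-value is given. Differences are CD8+ minus CD8- on the log2 scale, and 2-fold is a difference of 1.

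The arrays had median log2 signals of 3.86 (CD8+) and 3.83 (CD8-), and the median of all values, 3.85, served as a floor below which a signal was treated as near background. A gene was taken as measured where its higher value reached this floor, as 11404 genes did. Both populations had high signals for the conventional DC genes Flt3 (10.07 in CD8+ DCs, 9.80 in CD8- DCs) and Zbtb46 (9.04 in CD8+ DCs, 8.54 in CD8- DCs). The subset markers followed the sort: all 6 CD8+ DC markers on the array were higher in CD8+ DCs, led by Cd8a at 11.29 in CD8+ DCs against 5.15 in CD8- DCs, and all 5 CD8- DC markers were lower, with Sirpa at 4.49 in CD8+ DCs against 8.69 in CD8- DCs. Markers of other cells went both ways. Among B cell markers, Cd79b differed by -3.32 and Ms4a1 by 0.75. Among macrophage and monocyte markers, Adgre1 differed by -3.59, Cd14 by 1.39 and Vcam1 by 0.86. Among plasmacytoid DC markers, Tcf4 differed by -2.08 and Ccr9 by 2.09. Of 4 B cell markers, 1 was above the floor in CD8+ DCs and 2 were in CD8- DCs, with summed linear signals of 88.7 in CD8+ DCs against 152 in CD8- DCs. Of 5 macrophage and monocyte markers, 3 were above the floor in each population, with summed linear signals of 269.6 in CD8+ DCs against 413.6 in CD8- DCs. Of 5 plasmacytoid DC markers, 4 were above the floor in CD8+ DCs and 5 were in CD8- DCs, with summed linear signals of 502 in CD8+ DCs against 503 in CD8- DCs. Of 4 T cell markers, 2 (Cd3e and Cd5) were above the floor in each population, with summed linear signals of 56.2 in CD8+ DCs against 73.6 in CD8- DCs. Of 3 platelet markers, 2 (Gp9 and Itga2b) were above it in each, with sums of 86.1 in CD8+ DCs against 73.6 in CD8- DCs. No NK cell, neutrophil or red cell marker on the array reached the floor. On both arrays the B cell gene Pax5 and Spic of red pulp macrophages were below the floor. The part of such cells in the differences of Rab genes was not tested, and in sorted bulk cells fewer expressing cells and less RNA per cell cannot be told apart.

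Rab proteins are small GTPases that sit on the membranes of the secretory and endocytic routes and give each compartment its identity. An exchange factor (GEF) loads a Rab with GTP, which lets it bind effectors such as tethers and motor adaptors, and a GTPase-activating protein (GAP) returns it to the GDP state. In DCs they serve the uptake of antigen, the maturation of phagosomes, the transport of Toll-like receptors and the traffic of MHC molecules, and several have been tied to cross-presentation, the loading of internalised antigen on MHC class I, at which the CD8+ subset of mice is known to be efficient.

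RefSeq promoter windows of assembly GRCm38.p6, which run from 250 bases before a gene's start to 50 after it, were matched for 58 of the 72 genes by symbol (76 windows). The windows shown are those matched among the 5 GTPase genes past 2-fold: Rab32 and Rab39, higher in CD8+ DCs, and Rab24, higher in CD8- DCs. Rab7b and Rab37 were not matched. They lie at chr10:10558158-10558457 (Rab32), chr9:53706183-53706482 (Rab39) and chr13:55321931-55322230 (Rab24), each on the minus strand, and are written 5′ to 3′ with matches to any of 4 searched motifs in capitals.
Rab32: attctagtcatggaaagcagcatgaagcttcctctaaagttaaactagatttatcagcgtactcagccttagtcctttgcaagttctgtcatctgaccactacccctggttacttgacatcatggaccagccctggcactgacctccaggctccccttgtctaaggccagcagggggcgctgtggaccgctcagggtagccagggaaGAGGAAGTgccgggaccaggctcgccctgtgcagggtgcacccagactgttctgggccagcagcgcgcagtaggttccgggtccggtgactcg
Rab39: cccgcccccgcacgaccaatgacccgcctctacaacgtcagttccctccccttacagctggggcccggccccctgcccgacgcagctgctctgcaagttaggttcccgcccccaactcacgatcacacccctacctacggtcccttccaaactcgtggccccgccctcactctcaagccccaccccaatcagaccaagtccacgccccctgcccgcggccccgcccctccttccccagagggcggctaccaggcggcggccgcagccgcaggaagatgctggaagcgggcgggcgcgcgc
Rab24: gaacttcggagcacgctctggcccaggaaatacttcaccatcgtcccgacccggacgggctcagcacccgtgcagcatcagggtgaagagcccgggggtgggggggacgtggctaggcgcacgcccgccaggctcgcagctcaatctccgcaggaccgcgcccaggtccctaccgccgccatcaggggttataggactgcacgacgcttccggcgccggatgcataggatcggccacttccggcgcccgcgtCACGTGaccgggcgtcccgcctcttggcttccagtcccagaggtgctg

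The motifs were searched on both strands. The PU.1-type ETS motif GAGGAAGT, named for a myeloid and DC factor, stood at bases 208 to 215 of the Rab32 window. It was in 3.20% of all 32851 promoter windows and in 3 of the 58 Rab genes (5.17%), which were Rab32, Rab2b and Rab26os. The E-box CACGTG, the core of the site that TFEB-type factors of lysosomal genes bind, stood at bases 253 to 258 of the Rab24 window. It was in 7.15% of all windows and in 9 of the 58 Rab genes (15.5%), among them Rab5a, Rab20, Rab21, Rab23 and Rab27a. A gene counted as holding a motif if any of its windows did, so the share of genes and the share of windows are not on equal terms. The interferon-stimulated response element GAAANNGAAA was in 3.44% of windows and in 2 Rab genes (Rab19 and Rab10os), and the AP-1 motif TGANTCA was in 7.81% of windows and in 3 (Rab15, Rab34 and Rab39b). The Rab39 window held none of the 4. Its GC content was 70.7%, that of Rab24 was 68.7% and that of Rab32 was 57.3%. A match describes these letters and does not show binding.

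Most measured Rab genes differed by under 2-fold between the subsets (51 of 58). Of the 72 genes, 58 were measured and 14 stayed below the floor on both arrays. Among the 58, the difference reached 2-fold towards CD8+ DCs in 4 (6.90%), against 3.55% of all measured genes. It reached 2-fold towards CD8- DCs in 3 (5.17%), against 5.97% of all measured genes. These shares rest on a handful of genes and were not tested. At 1.5-fold, 13 of the 58 were higher in CD8+ DCs, against 968 of all 11404 measured genes (8.49%). In CD8- DCs, 5 of the 58 were higher, against 1314 of 11404 (11.5%). At 4-fold, Rab7b alone was higher in CD8+ DCs, against 0.859% of all measured genes, and no Rab gene was higher in CD8- DCs, against 2.10%.

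The difference was above 0 in 39 of the 58 measured Rab genes (67.2%) and in 52.6% of all measured genes. With each array centred on its median these shares were 64.4% (of 59 Rab genes, since Rab20 then reached the floor) and 49.8%, and with a signal-dependent lowess trend subtracted they were 67.2% and 50.1%. The median difference was 0.21 over the Rab genes, 0.21 over the 46 measured GTPase genes alone and 0.03 over all measured genes. The Rab differences ran between -1.83 and 2.04, with quartiles of -0.19 and 0.43, while those of all measured genes ran between -8.26 and 6.14. A difference under 0.5 in size was found for 37 of the 58 Rab genes (63.8%), and for 75.4% of all measured genes. For a single gene, the pooled SD of the difference between its probe sets was 0.30 over 5183 genes with several measured probe sets and 0.24 over the 33 Rab genes of that kind. This SD does not measure variation between mice or sorts.

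**Figure D1:**
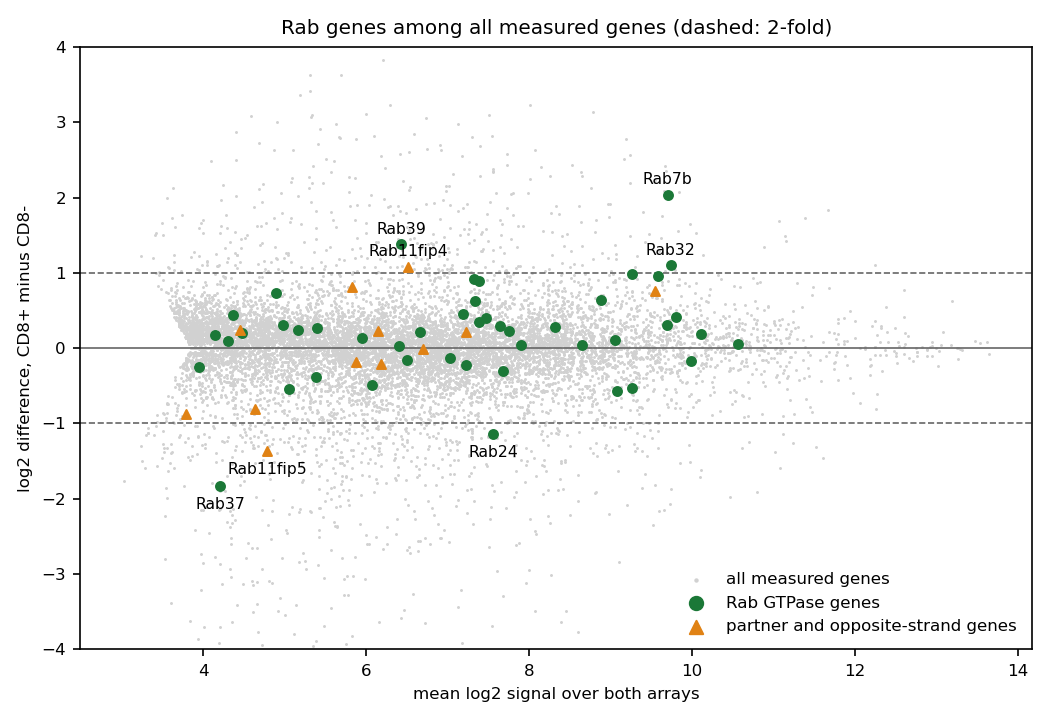
Log2 difference (CD8+ minus CD8-, vertical axis) against the mean log2 signal of both arrays (horizontal axis) for all measured genes in grey, Rab GTPase genes as green circles and partner or opposite-strand genes as orange triangles, 1 point a gene. Dashed lines mark 2-fold; 61 grey genes lie beyond the plotted range of 4, and the 7 Rab genes past 2-fold are named.

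Among the Rabs of late endosomes and lysosomes, Rab7b stood apart from its relatives. Rab7b, which acts in the transport of Toll-like receptors and in traffic between late endosomes and the Golgi network, was at 10.72 in CD8+ DCs against 8.68 in CD8- DCs, a 4.11-fold higher signal in CD8+ DCs. Its 3 measured probe sets differed by 1.52 to 2.06, so each was above 2-fold. Rab7, the general Rab of late endosome and lysosome fusion, was 9.84 in CD8+ DCs against 9.54 in CD8- DCs, a difference of 0.30 (0.40 on its other probe set). The gap between the differences of these paralogues was 1.74, the widest among the 10 Rab subfamilies with over 1 measured member compared here.

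Rab24, an atypical Rab linked to autophagy, went the other way at 6.98 in CD8+ DCs against 8.13 in CD8- DCs, a 2.22-fold higher signal in CD8- DCs. Both of its probe sets were past 2-fold, at -1.15 and -1.23. Rab9, which recycles mannose 6-phosphate receptors from late endosomes to the Golgi, was at 7.12 in CD8+ DCs against 7.34 in CD8- DCs. Its paralogue Rab9b was below the floor on both arrays.

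The Rabs of lysosome-related organelles and regulated secretion divided between the subsets. Rab32, which acts in the making of melanosomes and other lysosome-related organelles and in the defence of phagocytes against bacteria in vacuoles, was at 10.29 in CD8+ DCs against 9.19 in CD8- DCs, 2.15-fold higher in CD8+ DCs on its single probe set. Its paralogue Rab38 was at 5.53 in CD8+ DCs against 5.27 in CD8- DCs, a difference of 0.26. Rab29, a relative that recruits the kinase LRRK2, was at 7.52 in CD8+ DCs against 7.82 in CD8- DCs. Since B16 cells make melanosomes, their markers are given beside these genes. Of the 6 melanoma markers, Tyr, Tyrp1, Dct and Mlana were below the floor on both arrays, Mitf and Pmel were above it on both, and the summed linear signal of the list was 75.8 in CD8+ DCs against 80.3 in CD8- DCs, below the 86.3 that the list would have with every gene at the floor.

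Rab37, a Rab of secretory granules, was also on the CD8- side. It was at 3.29, below the floor, in CD8+ DCs against 5.12 in CD8- DCs, and with the floor in place of the lower value its signal in CD8- DCs was higher by at least 2.43-fold. Its second measured probe set differed by -0.78, but it was near background, at 3.10 in CD8+ DCs and 3.885 in CD8- DCs, barely above the floor. Rab27a, which drives granule secretion and brings the NADPH oxidase to DC phagosomes, was at 5.82 in CD8+ DCs against 6.31 in CD8- DCs, and its 3 measured probe sets differed by -0.57 to -0.24. Rab27b was below the floor on both arrays. Of the Rab3 group, which governs regulated exocytosis, Rab3a was at 7.56 in CD8+ DCs against 7.22 in CD8- DCs by its brightest probe set, an _x_at one. Its other measured probe set was much dimmer, at 4.82 in CD8+ DCs against 4.65 in CD8- DCs, so the level of Rab3a is uncertain. Rab3b was at 4.23 in CD8+ DCs against 4.05 in CD8- DCs, and Rab3d at 4.78 in CD8+ DCs against 5.33 in CD8- DCs. Rab3c was below the floor on both arrays. Rab3b and Rab3c have been linked to cross-presentation in a mouse DC line.

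The measured Rabs placed here at the endoplasmic reticulum and Golgi were all on the CD8+ side by their brightest probe set. Of 16 on the array, 13 were measured and all 13 had a difference above 0, between 0.04 and 1.38, with a median of 0.41, whereas 52.6% of all measured genes were above 0. Rab39 alone passed 2-fold on the CD8+ side (7.69%, against 3.55% of all measured genes) and none did on the CD8- side, against 5.97%. All 13 also stayed above 0 with the arrays centred and with the lowess trend subtracted, although the lowest, Rab18, was then at 0.01 and 0.02. With all probe sets averaged, Rab2b was at -0.01, and Rab6b and Rab36 fell below the floor, so their direction was not counted. The grouping by role is approximate, since several Rabs act at more than 1 compartment. It was made with earlier results of these data known, so the count of 13 is a description that depends on it. Some Rabs described here with a Golgi step were placed in other groups. Of these, Rab14 (-0.17) and Rab9 (-0.22) were below 0, and Rab7b (2.04) and Rab31 (0.22) were above 0. The list of such Rabs covers only the Golgi steps named in this text. Counting Rab24 (-1.15), Rab8a (-0.53) or Rab29 (-0.30), all placed elsewhere, in this group would also end its uniform direction. GTPases above 0 in other groups would not change it.

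Rab39, the mouse counterpart of human RAB39A, which acts on phagosomes and late endosomes as well as at the Golgi and has been tied to cross-presentation, was at 7.12 in CD8+ DCs against 5.73 in CD8- DCs. It was 2.61-fold higher in CD8+ DCs on its single probe set, and Rab39b was below the floor on both arrays. Rab43, a Golgi Rab known to be needed for cross-presentation by CD8+ DCs in mice, was at 10.06 in CD8+ DCs against 9.11 in CD8- DCs, 1.94-fold higher in CD8+ DCs. Its 3 probe sets were close together, at 0.81 to 0.96. Rab30 (7.78 in CD8+ DCs, 6.87 in CD8- DCs) and Rab19 (7.83 in CD8+ DCs, 6.94 in CD8- DCs), both found at the Golgi, were 1.89-fold and 1.86-fold higher in CD8+ DCs.

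Rab33b, which acts at the Golgi and in the formation of autophagosomes, followed at 7.65 in CD8+ DCs against 7.02 in CD8- DCs. The housekeeping Rabs of this route differed less. Rab1a, which directs transport between the endoplasmic reticulum and the Golgi, was at 10.59 in CD8+ DCs against 10.54 in CD8- DCs, with probe sets of both signs (-0.12 to 0.43). Rab1b was at 7.86 in CD8+ DCs against 7.64 in CD8- DCs. Rab2a, another Rab of this step, was at 10.00 in CD8+ DCs against 9.59 in CD8- DCs, and its 4 measured probe sets differed by 0.01 to 0.43. Rab2b was at 5.27 in CD8+ DCs against 5.04 in CD8- DCs, with probe sets of both signs. Rab6a, the Rab of transport within and out of the Golgi, was at 7.67 in CD8+ DCs against 7.27 in CD8- DCs, with 3 probe sets at 0.40 to 0.53. Its paralogue Rab6b (4.59 in CD8+ DCs, 4.15 in CD8- DCs) had a difference of 0.44 on its only measured probe set. The other probe sets of Rab6b, all below the floor on both arrays, were at -0.72, -0.29 and -0.08. Rab18, a Rab of lipid droplets and the endoplasmic reticulum, was even at 8.67 in CD8+ DCs against 8.63 in CD8- DCs. Rab36 was at 4.58 in CD8+ DCs against 4.38 in CD8- DCs, and Rab33a and Rab34 were below the floor on both arrays.

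**Figure D2:**
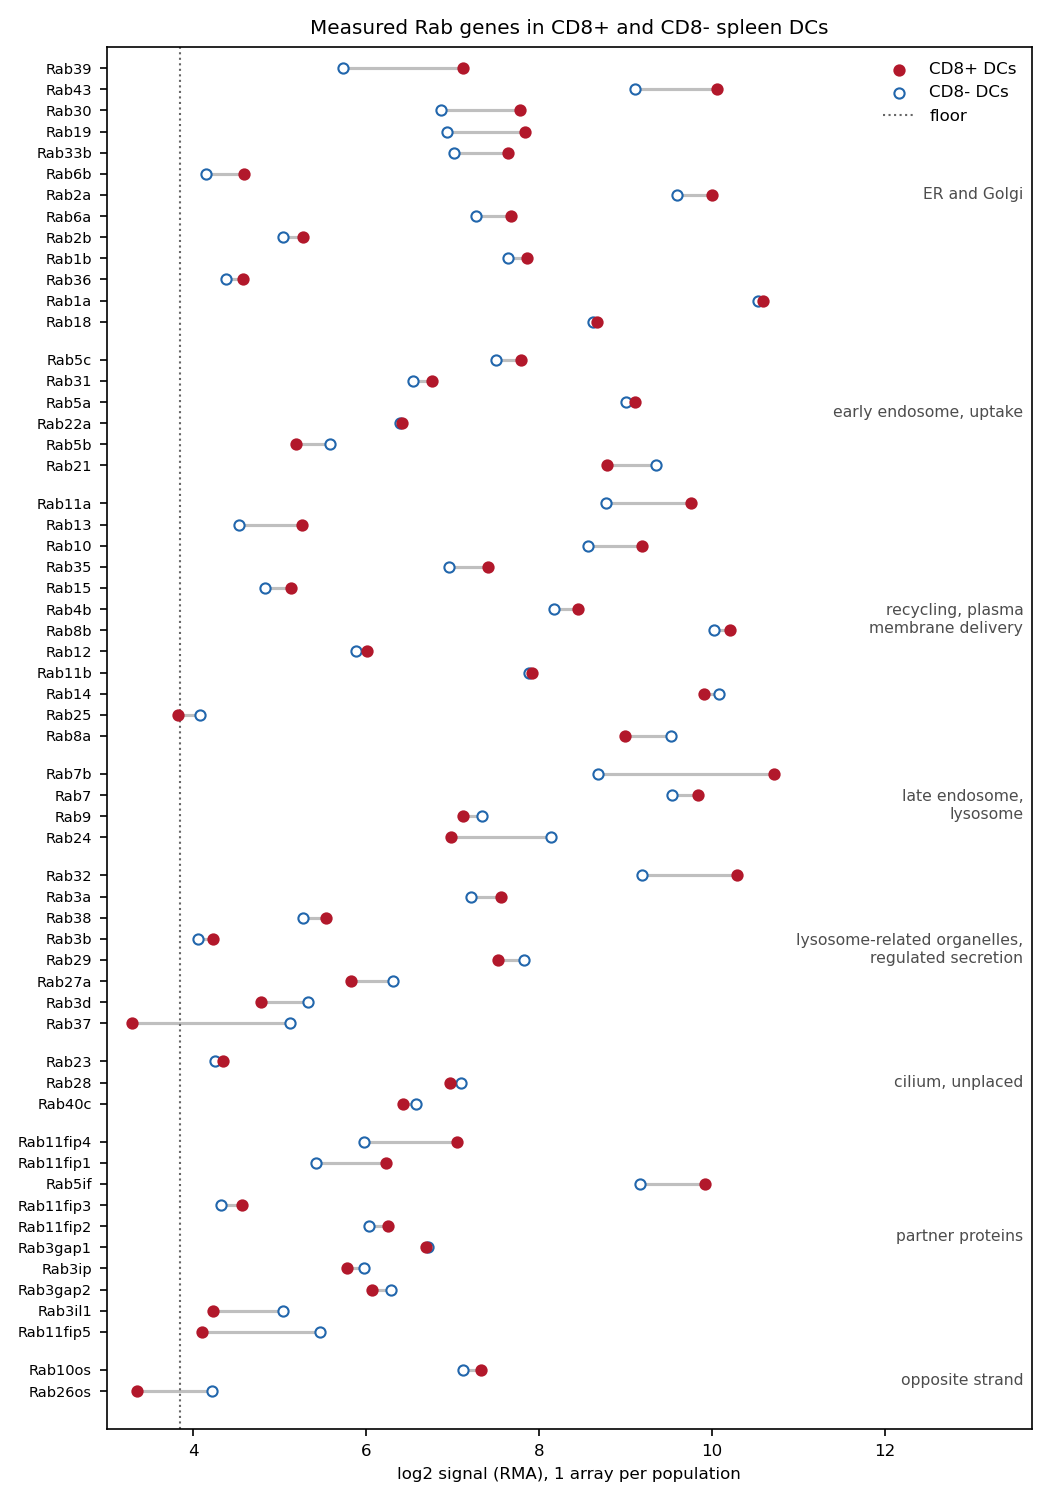
Log2 signal (horizontal axis) of the 58 measured Rab genes, grouped by role and ordered by difference, with CD8+ DCs as filled red circles and CD8- DCs as open blue circles, 1 array each, and the floor of 3.85 as a dotted line. Every red circle of the endoplasmic reticulum and Golgi group lies to the right of its blue one, by 0.04 to 1.38, whereas in the other groups of GTPases red circles lie on both sides. Roles were assigned with earlier results of these data known.

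Rabs of early endosomes and uptake had a median difference of 0.06, with single genes between -0.57 and 0.29. Of 8 on the array, 6 were measured and none reached 2-fold. Over all measured genes, 3.55% did so towards CD8+ DCs and 5.97% towards CD8- DCs, so few would be looked for among 6 genes. Rab5a, which controls the fusion of early endosomes, was at 9.11 in CD8+ DCs against 9.0 in CD8- DCs. Its paralogues split, with Rab5c at 7.79 in CD8+ DCs against 7.5 in CD8- DCs and Rab5b at 5.19 in CD8+ DCs against 5.58 in CD8- DCs (probe sets at -0.53 and -0.39). Rab21, which traffics integrins from early endosomes, was at 8.79 in CD8+ DCs against 9.36 in CD8- DCs, and its probe sets differed by -0.57 and -0.91. Rab22a, an early endosomal Rab tied to MHC class I recycling and cross-presentation, was even at 6.41 in CD8+ DCs against 6.39 in CD8- DCs, with 4 probe sets at 0.02 to 0.23. Its relative Rab31, of the route between the Golgi network and endosomes, was at 6.76 in CD8+ DCs against 6.55 in CD8- DCs. Rab17 was below the floor on both arrays. Rab20, a Rab of phagosome maturation, had 3.0 in CD8+ DCs against 3.84 in CD8- DCs and so just missed the floor.

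In the group of recycling and delivery to the plasma membrane, 12 of 13 genes were measured, none reached 2-fold, 9 were above 0, and the median difference was 0.23. Rab11a, the Rab of the recycling endosome, which brings Toll-like receptor 4 and stored MHC class I molecules to DC phagosomes, was at 9.76 in CD8+ DCs against 8.77 in CD8- DCs. Its signal was 1.98-fold higher in CD8+ DCs, just under the threshold, and its second probe set differed by 0.74. Its paralogue Rab11b was even, at 7.92 in CD8+ DCs against 7.88 in CD8- DCs (second measured probe set at 0.35). Rab10, which acts in exocytosis and recycling, was at 9.20 in CD8+ DCs against 8.56 in CD8- DCs, with 3 probe sets at 0.43 to 0.83. Rab13, a Rab of junctions and of polarised delivery, was at 5.26 in CD8+ DCs against 4.53 in CD8- DCs on its single probe set.

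Rab8a and Rab8b, paralogues in transport to the cell surface, differed in direction by their brightest probe sets. With all probe sets averaged, Rab8a was at -0.12 and Rab8b was nearly even at -0.006. Each of these averages takes in a probe set that was below the floor on both arrays. Rab8b had only 1 measured probe set, at 0.19. Rab8a was at 9.0 in CD8+ DCs against 9.53 in CD8- DCs, whereas Rab8b was at 10.21 in CD8+ DCs against 10.02 in CD8- DCs. The second measured probe set of Rab8a differed by 0.18, so its direction was not shared by both. Rab35, of fast endosomal recycling, was at 7.41 in CD8+ DCs against 6.96 in CD8- DCs, and Rab4b, of the same step, was at 8.45 in CD8+ DCs against 8.17 in CD8- DCs. Rab4a was below the floor on both arrays. Rab14, which works between the Golgi and endosomes and on phagosomes, was at 9.91 in CD8+ DCs against 10.08 in CD8- DCs, and its 6 measured probe sets had both signs (-0.24 to 0.24). Rab12 (6.01 in CD8+ DCs, 5.88 in CD8- DCs) and Rab15 (5.13 in CD8+ DCs, 4.83 in CD8- DCs) differed by 0.13 and 0.30. Rab25, an epithelial relative of Rab11, was near the floor at 3.82 in CD8+ DCs against 4.08 in CD8- DCs.

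Of the remaining GTPases, Rab23, known from cilia and Hedgehog signalling, was at 4.35 in CD8+ DCs against 4.26 in CD8- DCs. Rab28, also of cilia, was at 6.97 in CD8+ DCs against 7.10 in CD8- DCs, and Rab40c, which recruits a ubiquitin ligase, at 6.43 in CD8+ DCs against 6.58 in CD8- DCs (second measured probe set at -0.64). Rab26, Rab40b, Rab42 and Rab44 were below the floor on both arrays.

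All 10 partner genes were measured, and those of Rab11 covered the whole range of the group. Rab11 family-interacting proteins link Rab11 to motors and membranes. Rab11fip4 was at 7.05 in CD8+ DCs against 5.97 in CD8- DCs, 2.12-fold higher in CD8+ DCs, but its other 2 measured probe sets each differed by 0.25. Rab11fip1, a recycling endosome adaptor, was at 6.23 in CD8+ DCs against 5.42 in CD8- DCs, with its other probe set at 0.38. Rab11fip2 (6.26 in CD8+ DCs, 6.03 in CD8- DCs) and Rab11fip3 (4.57 in CD8+ DCs, 4.32 in CD8- DCs) differed by 0.23 and 0.24. Rab11fip5 went the other way, at 4.10 in CD8+ DCs against 5.47 in CD8- DCs, 2.59-fold higher in CD8- DCs on its only measured probe set, whose suffix (_s_at) marks probes shared by several transcripts.

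The exchange factor genes Rab3il1 (4.22 in CD8+ DCs, 5.04 in CD8- DCs) and Rab3ip (5.78 in CD8+ DCs, 5.97 in CD8- DCs), whose proteins act on Rab8 and Rab3, differed by -0.81 and -0.19. Both measured probe sets of Rab3il1 lay within 0.01 of each other, at -0.82 and -0.81. The subunits of the Rab3 GAP, Rab3gap1 (6.69 in CD8+ DCs, 6.71 in CD8- DCs) and Rab3gap2 (6.07 in CD8+ DCs, 6.29 in CD8- DCs), were nearly even. Rab5if, first named for an interaction with Rab5, was at 9.92 in CD8+ DCs against 9.17 in CD8- DCs. Of the opposite-strand transcripts, Rab10os was at 7.33 in CD8+ DCs against 7.12 in CD8- DCs with probe sets of both signs, Rab26os was at 3.35 (below the floor) in CD8+ DCs against 4.22 in CD8- DCs, and Rab11fip4os1 was below the floor on both arrays.

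**Figure D3:**
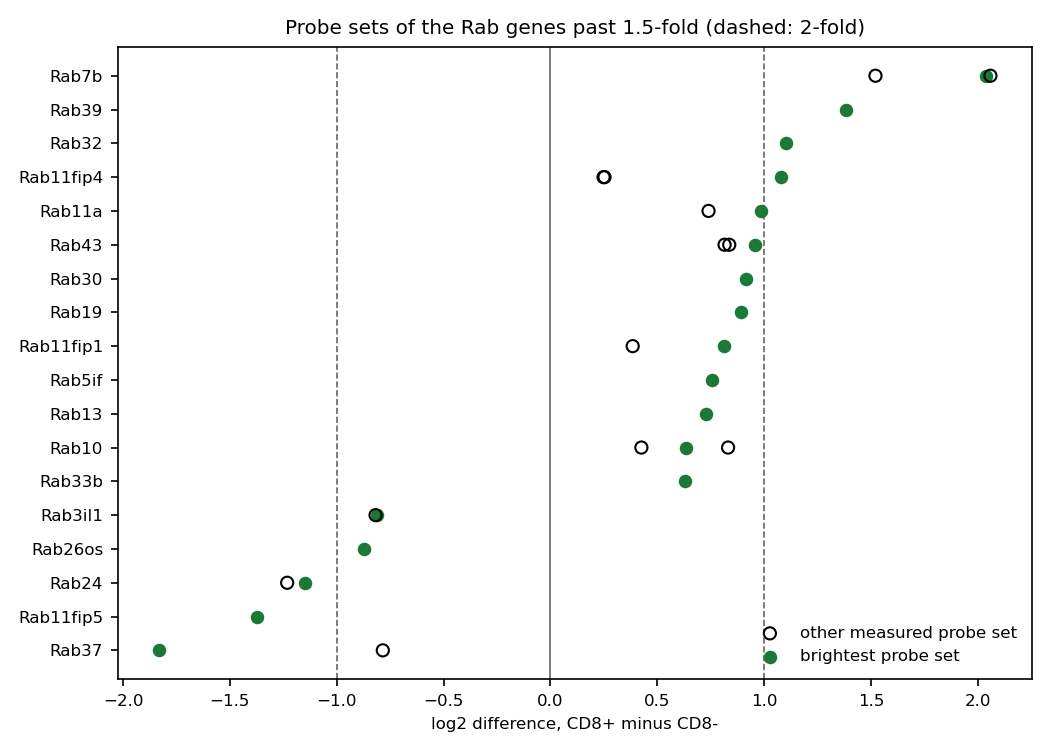
Log2 difference (CD8+ minus CD8-, horizontal axis) of every measured probe set of the 18 Rab genes past 1.5-fold, with the brightest probe set of each gene filled in green, the others as open black circles and 2-fold as dashed lines. Rab7b and Rab24 have several probe sets past 2-fold, Rab11a and Rab43 have theirs between 0.74 and 0.98, and the probe sets of Rab11fip4 and Rab37 lie on both sides of 2-fold.

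Agreement between probe sets could be read for part of the family. Of the 58 measured genes, 33 had over 1 measured probe set, and in 27 of these all probe sets had the same sign. The 6 with both signs were Rab1a, Rab2b, Rab8a, Rab10os, Rab14 and Rab28, all under 2-fold. Of the 7 genes past 2-fold, 4 had several measured probe sets and 3 (Rab32, Rab39 and Rab11fip5) had 1. Just inside 2-fold were Rab11fip4 (1.08), Rab32 (1.10), Rab24 (-1.15), Rab11fip5 (-1.37) and Rab39 (1.38), and just outside were Rab11a (0.98), Rab43 (0.96), Rab30 (0.91) and Rab19 (0.89). Rab26os, at -0.87, had a CD8+ value below the floor and was at -0.37 with the floor in its place.

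The regulators of Rabs were compared from lists of textbook members, which also hold Rab3ip and Rab3il1 (GEFs) and Rab3gap1 and Rab3gap2 (GAPs). Of 32 measured GEF genes, 2 exceeded 2-fold on the CD8+ side (6.25%, against 3.55% of all measured genes) and 2 on the CD8- side (6.25%, against 5.97%), around a median difference of -0.09. Rin2, a GEF of Rab5, was at 2.53, below the floor, in CD8+ DCs against 6.17 in CD8- DCs, at least 5.01-fold higher in CD8- DCs. Dennd3, a GEF of Rab12, was at 5.75 in CD8+ DCs against 7.87 in CD8- DCs, 4.35-fold higher in CD8- DCs. On the other side, Dennd2d, which encodes a protein with the DENN domain of many Rab GEFs, was at 6.44 in CD8+ DCs against 4.74 in CD8- DCs, 3.25-fold higher in CD8+ DCs, and its other probe set was also past 2-fold, at 1.10. Als2cl, related to the Rab5 GEF alsin, was at 6.23 in CD8+ DCs against 4.89 in CD8- DCs, with its other probe set at 0.37. By their brightest probe sets, Rab5a, Rab5b, Rab5c and Rab12 themselves each differed by 0.39 or less in size. The other measured probe set of Rab5b was at -0.53.

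Of 35 measured GAP genes, none exceeded 2-fold on the CD8+ side, against 3.55% of all measured genes, and 2 did on the CD8- side (5.71%, against 5.97%), around a median of 0.00. Tbc1d16, a GAP of Rab4, was at 2.86, below the floor, in CD8+ DCs against 5.79 in CD8- DCs, at least 3.86-fold higher in CD8- DCs, though its other measured probe set differed by -0.33. Evi5, a GAP-domain protein that binds Rab11, was at 6.09 in CD8+ DCs against 7.69 in CD8- DCs, 3.03-fold higher in CD8- DCs, and its other probe set also differed by -1.60.

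The list named for prenylation and GDP dissociation inhibition held 12 measured genes (median 0.03). None reached 2-fold, against 3.55% (CD8+) and 5.97% (CD8-) of all measured genes. Chm, Chml, Rabggta, Rabggtb and Gdi2 are among its genes of these steps, which attach Rabs to membranes and lift them off. They differed by -0.73 (Chm) to 0.35 (Rabggta). The rest of the list was Rabac1 and Yipf1 to Yipf6, whose part in these steps was not examined here, so the median may cover other kinds of genes. Chm, which encodes Rab escort protein, was at 6.48 in CD8+ DCs against 7.21 in CD8- DCs, and Gdi2, a GDP dissociation inhibitor gene, was at 11.75 in CD8+ DCs against 11.80 in CD8- DCs. Of 54 measured effector genes, of which 5 are the Rab11fip genes described above, 1 (Rab11fip4) exceeded 2-fold on the CD8+ side (1.85%, against 3.55% of all measured genes) and 2 (Rab11fip5 and Myo5a) on the CD8- side (3.70%, against 5.97%), around a median of 0.08. Myo5a, the myosin motor that Rab27a and Rab11 recruit, was at 6.70 in CD8+ DCs against 7.79 in CD8- DCs, 2.12-fold higher in CD8- DCs, with its 3 measured probe sets at -1.64 to -1.09.

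The Arf and Arl genes, another family of small GTPases of membrane traffic, were set beside the Rabs as a description. None of the 14 measured reached 2-fold (median 0.08), against 3.55% (CD8+) and 5.97% (CD8-) of all measured genes. The difference between this family and the Rabs was not tested.

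**Figure D4:**
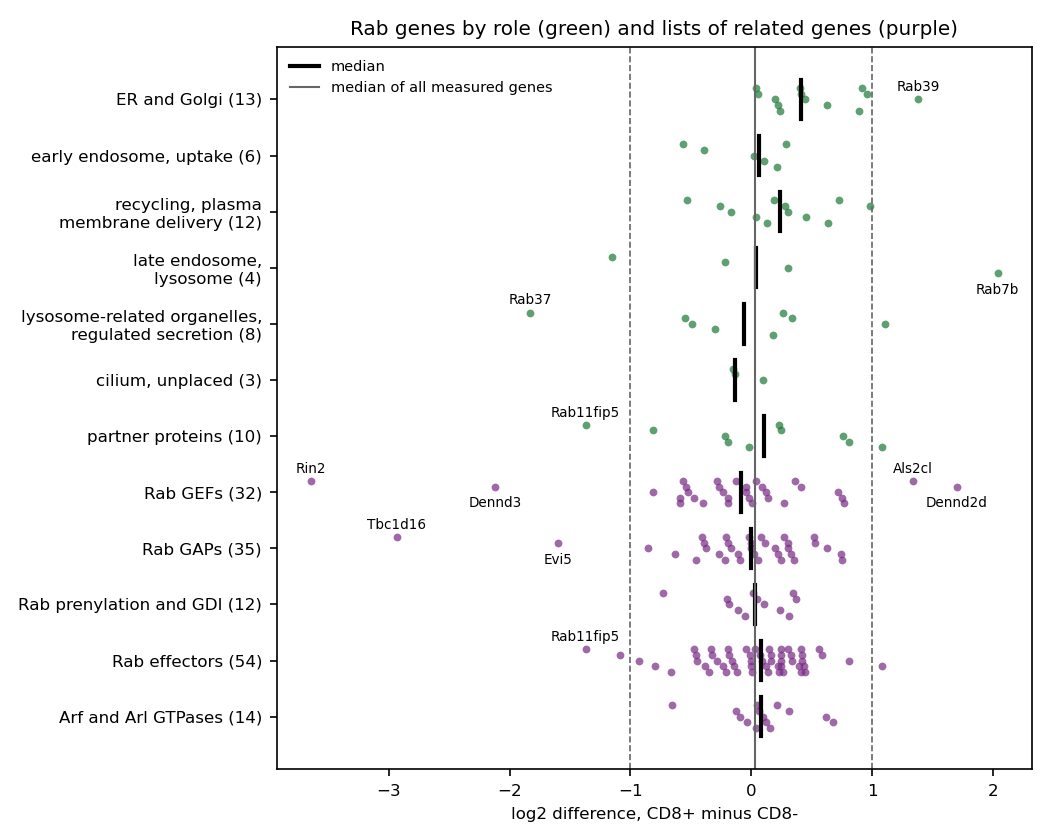
Log2 difference (CD8+ minus CD8-, horizontal axis) of measured Rab genes by role in green and of the lists of related genes in purple. Each row has 1 point a gene, with the number of genes in brackets. Black bars are medians, the grey line is the median of all measured genes (0.03) and dashed lines are 2-fold. Partner genes that are also on a list, such as Rab11fip4 and Rab11fip5, are drawn in both colours. The endoplasmic reticulum and Golgi group has a median of 0.41 and no point below 0, with roles assigned when earlier results of these data were known. Among points past 2-fold, those of Rin2, Tbc1d16 and Rab37 rest on a CD8+ value below the floor, so their differences are not ranked. Among the others, Rab25 and Osbpl1a have a CD8+ value below the floor, and Myo7a and Ehbp1 a CD8- value below it.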

How the data were processed

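Biotin-labelled cRNA of each population was hybridised to 1 Affymetrix array. The deposited table holds 1 value per probe set, whose range is that of log2 signal, and the submitters' processing notes name RMA; its version, and whether both arrays were processed together, are not stated in the labels. A quantile step such as RMA's would hide a shift shared by most genes. The array medians differed by 0.03, and 7.30% of probe sets held identical values on both arrays. Of 45101 probe sets, 34958 had a single gene in the platform annotation, 932 several and 9211 none listed, and 34754 took their symbol from RefSeq by gene identifier. Detection calls were not used.

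The difference of log2 values was CD8+ minus CD8-, with a floor at the median of all values and a threshold of 2-fold. With 1 array a population, the number of arrays limits the precision. The members, roles and lists were chosen from general knowledge with earlier results of these data known. The rule for named genes took the measured members past 2-fold, the 5 nearest to it on either side, the 10 of highest mean signal, members with probe sets of both signs of which 1 is past 2-fold (none was found), members with textbook roles in DCs or phagosomes and their closest paralogues, and the list genes past 2-fold. The other members were to be given by count and range; their values are also printed here, as are Chm and Gdi2, picked once their values were known. Single-gene probe sets existed for 35 of 38 GEF, 36 of 36 GAP, 67 of 74 effector and 16 of 29 Arf and Arl genes listed. They existed for 12 of 13 genes on the list named for prenylation and GDP dissociation inhibition. A further comparison list is not reported here. The Rab protein sequences were not analysed here. Calculations used pandas 2.3.3, numpy 2.4.6 and statsmodels 0.14.6 under Python 3.11.15 and were tested on simulated data. Alternatives were median centring, a lowess trend (span 0.3), no floor, a floor at the 75th percentile, averaged probe sets, probe sets without _x_at and _s_at, values below the floor set to it, GTPases only, and thresholds of 1.5-fold and 4-fold.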

Additional observations from a re-analysis of the deposited data

How the results depend on the processing

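With 1 array a population, a value was taken as moved where it changed by more than 0.30, the pooled SD between probe sets of a gene, and a count where it changed by more than 1.5 times. The median over measured Rab genes stayed between 0.15 and 0.22 under all settings tried. Among counts of Rab genes, that of genes at least 2-fold higher in CD8- DCs was 3, but 1 (Rab24) with the floor at the 75th percentile of all values (6.01), which left 41 Rab genes measured. With the threshold at 1.5-fold the counts were 13 (CD8+) and 5 (CD8-), and at 4-fold 1 and 0, by construction. Otherwise they were 3 or 4 for CD8+ DCs and between 2 and 4 for CD8- DCs, where the lowess trend took Rab26os past 2-fold (-1.04). Averaging all probe sets, dimmer ones included, took Rab11fip4 (0.53) and Rab11fip5 (-0.76) under 2-fold and moved Rab37 (-1.31) and Rab8a (-0.12). Leaving out _x_at and _s_at probe sets removed Rab11fip5. Setting values below the floor to it moved Rab37 to -1.28 and Rab26os to -0.37. Of 384 values of single Rab genes that stayed measured under an alternative, these 6 moved and 7 changed sign, all of genes under 2-fold (Rab2b, Rab8b, Rab10os, Rab14, Rab22a, Rab23 and Rab3gap1). With all probe sets averaged, Rab6b, Rab23, Rab36 and Rab3il1 fell below the floor, so that setting gave no value for them. Of 105 values for the lists, 7 moved, each a count of 2 or fewer. No paired analysis was possible because each population has 1 array. The spread between mice, sorts and hybridisations is unknown.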
